A study of Drosophila melanogaster with 4 samples.

Results

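Uextra is the part of release 5 of the *Drosophila melanogaster* genome that collects small sequence scaffolds with no known place on any chromosome. All 439 peaks that the submitters' list puts on Uextra are described here, out of 4198 peaks in the list, with no limit on score. The study precipitated chromatin of whole larvae at the wandering larval stage (L3) with a rabbit antibody to green fluorescent protein (GFP), ab290, and sequenced the DNA. The larvae carried Notch-GFP, a transgene of the Notch genomic coding region, in the genotype PBac{y[+]-attP-3B}VK00033, which the input libraries share. The labels give 2 libraries of precipitated DNA and 2 of input DNA, with sex unknown and no age beyond the stage. The protocol text names y; bw cn sp flies, grown at 25 °C, and cross-linking in 1.8% formaldehyde for 15 min. No library from untagged larvae is given in the labels, so signal that does not come from tagged Notch cannot be told apart. The study's result is 1 peak list with a first base, a last base and a score per peak, and it carries no value per library. Read depth is unknown, and no difference below has a replicate error or a p-value.

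Notch is a receptor at the cell surface whose intracellular part moves to the nucleus when a ligand binds. It does not bind DNA itself but joins the DNA-binding protein Su(H) at target genes. Much of the sequence that could not be placed in the fly genome comes from heterochromatin, the compact and repeat-rich chromatin around centromeres and on the Y chromosome. Reads from a repeat can match several copies, so a peak on such sequence may stand for several places in the genome. The order of the scaffolds within Uextra is not a chromosomal order, and their joins were not used here. A distance between peaks on Uextra is thus a distance along the string, which may cross a join. The base sequence of Uextra was not used here, so no gene, repeat or motif is named for any peak.

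Peaks on Uextra were narrow. The median peak was 371 bp wide (95% interval 345 to 390 bp). The quartiles were 265 and 518 bp, and the extremes 201 and 1140 bp. On the arms 2L, 3L, 3R and X the median was between 484 and 497 bp, and the widest peak of these arms measured 4088 bp. Widths above 1000 bp were rare on Uextra, with 2 of 439 peaks (0.456%, 95% interval 0.0552 to 1.64%), against 14.3% of the whole list and 446 of 2884 peaks (15.5%) on the 4 arms. At the narrow end, 146 Uextra peaks (33.3%) were at most 300 bp wide, against 19.4% on the 4 arms. All 439 peaks together covered 178 kb, or 0.616% of Uextra up to the end of its last peak at 29.0 Mb. The corresponding coverage on the 4 arms was 1.85%. The intervals of medians come from order statistics, those of shares are exact binomial intervals, and both cover counting error only.

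**Figure D1:**
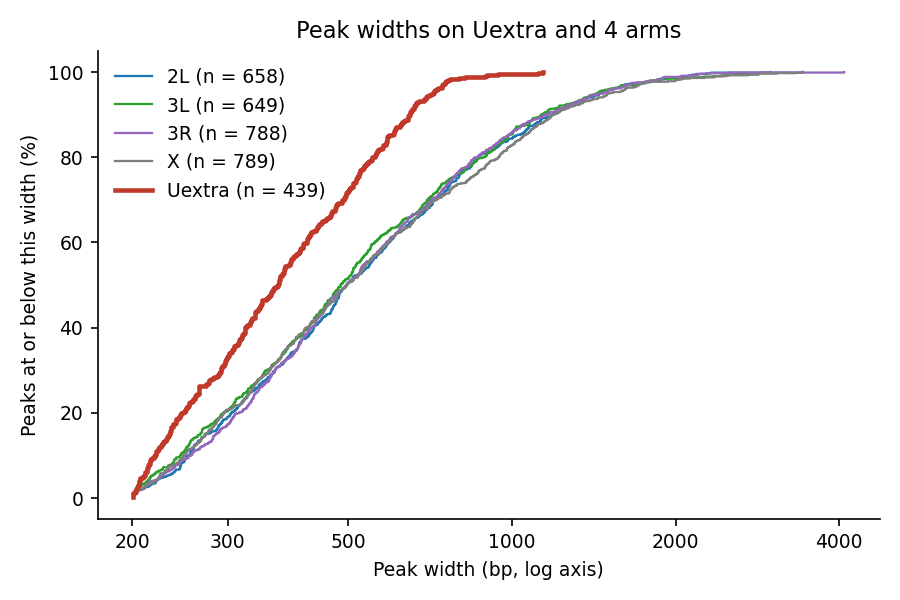
Cumulative share of peaks (%) against peak width (bp, log axis) for Uextra (thick line) and the arms 2L, 3L, 3R and X (thin lines). The 4 arms run together, while the Uextra line rises earlier and ends at 1140 bp.

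The authors' score did not show the same shift over peaks of all widths. The median score on Uextra was 27.2 (95% interval 24.4 to 29.97), with quartiles of 16.5 and 51.8 and a range from 7.85 to 349. The medians of 2L, 3L, 3R and X lay between 24.4 and 26.4. Scores over 100 were given to 33 Uextra peaks (7.52%, 95% interval 5.23 to 10.4%), against 13.8% of the whole list. Those 33 peaks were 436 to 1140 bp wide, the median being 577 bp. The 378 peaks of the 4 arms with such scores had a median width of 1015 bp, and 348 of them were wider than 600 bp, against 16 of the 33 on Uextra.

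Wider peaks scored higher on Uextra too, but the relation was looser than on the arms. Spearman's rho between width and score was 0.417 over the 439 Uextra peaks, and Pearson's r was 0.534. On the single arms rho ran from 0.758 to 0.781, and r from 0.557 to 0.667. These are descriptions across peaks that share the same libraries and the same caller. Uextra also held a group of narrow peaks of moderate score, for which the arms had few counterparts. Its widths spanned a smaller range, with quartiles of 265 and 518 bp, against 333 and 790 bp on the 4 arms pooled. Whether either accounts for the looser relation was not tested.

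**Figure D2:**
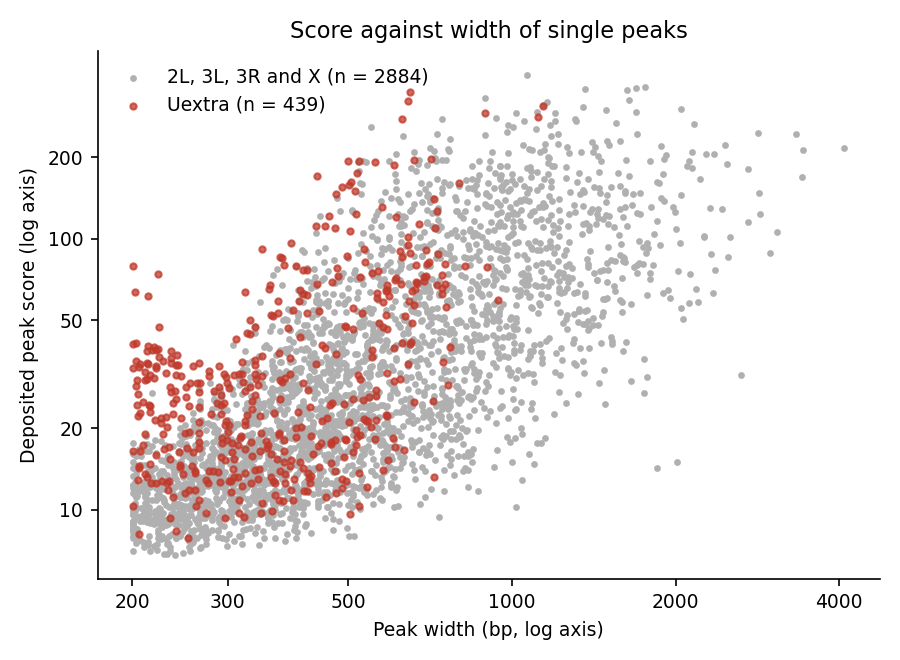
Deposited peak score against peak width in bp (both log axes), 1 point per peak, for Uextra (red) and for 2L, 3L, 3R and X pooled (grey). Below 300 bp many red points lie above the grey cloud, where arm peaks reach at most 29.3.

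Peaks of like width were therefore compared. In the class up to 300 bp the median score was 22.6 on Uextra (95% interval 20.3 to 25.6, n = 146) and 11.8 on the 4 arms (11.2 to 12.1, n = 559), a ratio of 1.93. The arms differed little from each other in this class, with medians from 11.2 on 2L to 12.0 on 3R. The highest score of an arm peak in this class was 29.3, and 48 of the 146 Uextra peaks (32.9%) exceeded it. A further view is the 95th percentile of the arm peaks, which 84 of the 146 (57.5%) exceeded.

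Over 300 and up to 600 bp the medians were closer, and in the wider classes they lay further apart in score units than up to 300 bp. In the class over 300 and up to 400 bp the Uextra median was 19.3 (95% interval 16.9 to 26.6, n = 105) and the arm median 16.1 (15.4 to 17.0, n = 481). Over 400 and up to 600 bp the values were 29.4 (23.1 to 46.6, n = 123) and 26.2 (24.0 to 28.0, n = 734), so the intervals overlap widely. The upper quartile in this class was 64.9 on Uextra, against 43.3 on the arms. Over 600 and up to 1000 bp the medians were 70.1 (64.4 to 80.2, n = 63) and 50.4 (47.7 to 54.6, n = 664). These intervals do not overlap, although that of 3L alone (42.6 to 69.6, n = 143) overlaps the one of Uextra. The lower quartile was 45.2 on Uextra and 27.5 on the arms, but the upper quartile was 90.5 on Uextra and 93.1 on the arms. The class over 1000 bp held 2 Uextra peaks, with scores of 282 and 310, against a median of 89.6 over 446 arm peaks.

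Averaged over the 5 width classes with the Uextra counts as weights, the Uextra median was 9.04 score units above the arm median (95% interval 5.18 to 12.9). The same measure for each arm against the other 3 arms gave -3.45 for 2L, -0.893 for 3L, 1.94 for 3R and 1.75 for X. All of these arm intervals included 0. The interval for Uextra adds the errors of the class medians as if peaks were independent, and it holds no variation between libraries. In the class over 1000 bp the scores of the 2 Uextra peaks stood in for an interval. With that class left out, an alternative added after the data were seen, the Uextra difference was 8.14.

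**Figure D3:**
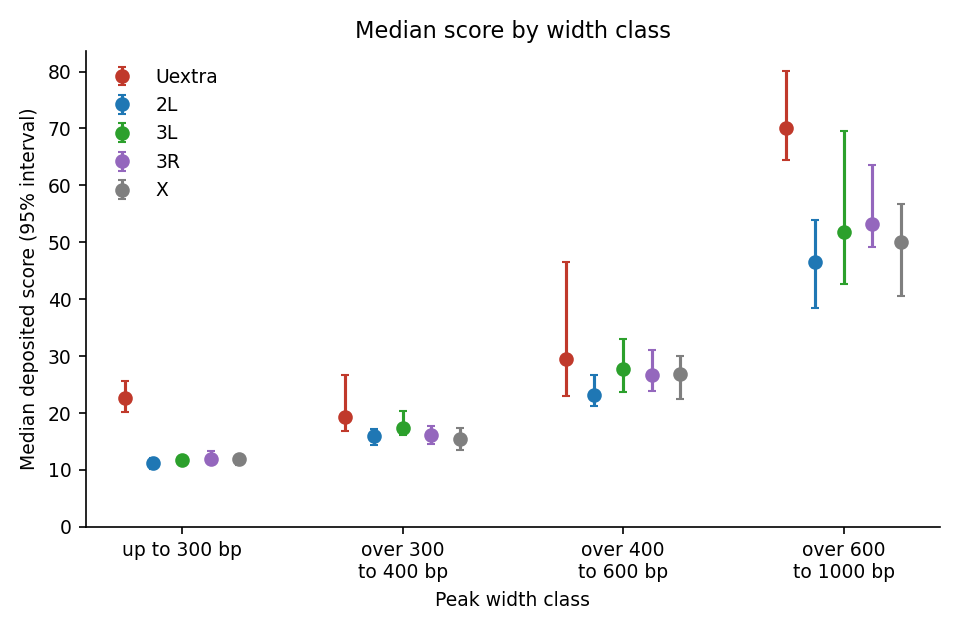
Median deposited score with its 95% order-statistic interval for Uextra and the arms 2L, 3L, 3R and X in 4 width classes; the class over 1000 bp, with 2 Uextra peaks, is left out. Uextra stands above all 4 arms up to 300 bp (22.6 against 11.2 to 12.0), while its interval overlaps those of the arms over 400 and up to 600 bp.

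A second measure used no classes. Each Uextra peak was set against the median score of all arm peaks within 10% of its own width, of which there were at least 132. Of the 439 peaks, 316 scored above that median (72.0%, 95% interval 67.5 to 76.1%). Measured the same way, 50.0% of the arm peaks did so, a share that lies near 50% by construction. For each arm against the other 3 the share lay between 47.3% on 2L and 53.6% on 3R. By class, the share was 91.1% up to 300 bp, 63.8% in the class up to 400 bp, 52.0% in the class up to 600 bp and 79.4% in the class up to 1000 bp. The interval of the class up to 600 bp (42.8 to 61.1%) included 50.0%.

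Read the other way, Uextra peaks of like score were narrower, except at the lowest scores. Peaks scoring up to 15 had a median width of 316.5 bp on Uextra (95% interval 290 to 360 bp, n = 90) and 291 bp on the arms (284 to 303 bp, n = 812). With scores over 25 and up to 40 the medians were 293 bp (259 to 330 bp, n = 100) and 503 bp (484 to 535 bp, n = 426). With scores over 75 and up to 150 they were 552.5 bp (474 to 645 bp, n = 40) and 949.5 bp (897 to 984 bp, n = 368). Over 150 they were 606 bp (505 to 709 bp, n = 19) and 1089 bp (1004 to 1164 bp, n = 176).

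Of the other sequence outside the chromosome arms, the scaffolds strung together as U were also above the arms at like width, with 33 of 38 peaks above the matched median (86.8%, 95% interval 71.9 to 95.6%). On the 6 heterochromatic scaffolds 50 of 73 peaks were above it (68.5%, 56.6 to 78.9%). The intervals of both overlap that of Uextra. In the class up to 300 bp the median score was 17.4 on U (95% interval 8.51 to 20.9, n = 6). On the heterochromatic scaffolds it was 11.4 (9.61 to 24.9, n = 14), against 22.6 on Uextra (20.3 to 25.6). Both intervals overlap that of Uextra. Without the Uextra peaks from 25 Mb on, the Uextra median in this class was 17.2 (n = 76). In the wider classes U had the higher medians: 39.0 against 19.3 up to 400 bp (n = 12 on U), 53.8 against 29.4 up to 600 bp (n = 10) and 175.9 against 70.1 up to 1000 bp (n = 9). The heterochromatic scaffolds had 15.4 up to 400 bp (n = 7), 68.0 up to 600 bp (n = 16) and 85.6 up to 1000 bp (n = 15). Scores over 100 were more frequent on both than on Uextra (7.52%). On U they were given to 11 of 38 peaks (28.9%, 95% interval 15.4 to 45.9%). On the heterochromatic scaffolds they were given to 29 of 73 (39.7%, 28.5 to 51.9%). The median width was 441 bp on U (95% interval 348 to 533 bp), against 371 bp on Uextra (345 to 390 bp). On the heterochromatic scaffolds it was 581 bp (510 to 758 bp). Wider than 1000 bp were 1 of 38 peaks on U and 21 of 73 on the heterochromatic scaffolds (28.8%). Spearman's rho between width and score was 0.783 on U and 0.715 on the heterochromatic scaffolds, against 0.417 on Uextra. All of these comparisons rest on few peaks of U and of the heterochromatic scaffolds.

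The excess over the arms was uneven along Uextra, which was divided after the list had been seen into 6 stretches of 5 Mb in coordinate order, the last being shorter. In the first stretch 43 of 50 peaks (86.0%, 95% interval 73.3 to 94.2%) scored above arm peaks of like width, and the median score was 50.6. In the second the share was 41 of 65 (63.1%, 50.2 to 74.7%). The third, with 56 of 100 (56.0%, 45.7 to 65.9%), and the fourth, with 41 of 75 (54.7%, 42.7 to 66.2%), had intervals that include 50.0%. In the fifth stretch 30 of 38 peaks were above (78.9%, 62.7 to 90.4%). The sixth stretch, from 25 Mb on, held 111 peaks, of which 105 were above (94.6%, 88.6 to 98.0%). Over the 21 stretches of 5 Mb on the arms, each with at least 20 peaks, the share ran from 34.0 to 60.0%. Stretches 3 and 4 of Uextra fell inside that range and the other 4 above it.

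**Figure D4:**
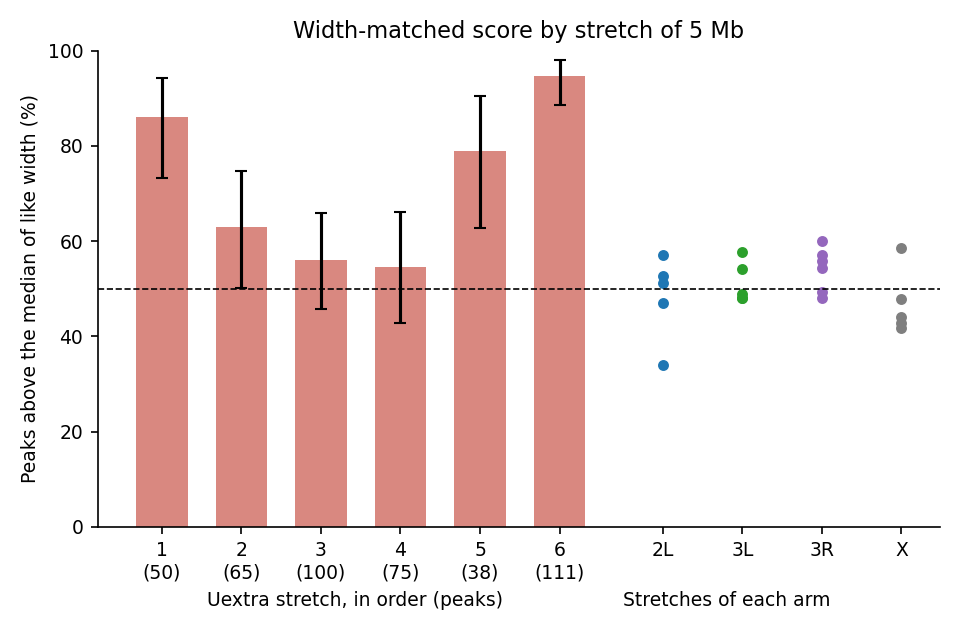
Share of peaks (%) scoring above the median of arm peaks of like width, for the 6 successive stretches of Uextra (bars with exact 95% binomial intervals; peak numbers in brackets) and for single stretches of the 4 arms against the other 3 arms (points). The dashed line marks 50%. Stretches 3 and 4 lie among the arm values, and stretch 6 reaches 94.6%.

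The sixth stretch was made up mostly of narrow peaks. Of its 111 peaks, 70 (63.1%) were at most 300 bp wide, against 76 of 328 (23.2%) in the first 5 stretches. All 70 scored above the arm median at their width (95% interval 94.9 to 100%), with a median of 28.9 and a range from 12.5 to 79.3. Of the 48 narrow Uextra peaks above the highest arm peak of that class, 34 lay in this stretch. In the first 5 stretches, narrow peaks had a median score of 17.2, and 63 of 76 (82.9%, 72.5 to 90.6%) were above the arm median at their width. By stretch, narrow peaks had medians of 21.3, 24.4, 14.2, 16.9, 20.3 and 28.9 from the first to the sixth. The same median ran from 10.1 to 14.8 over the stretches of the arms, so the third stretch of Uextra lay within the arm range.

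The 10 peaks with the highest score were spread over 5 of the 6 stretches, the fourth having none, and most were of moderate width. The first, from 6918841 to 6919488 on Uextra (release 5, as for all positions here), was 648 bp wide and scored 349, rank 9 of the whole list, where arm peaks of like width had a median of 40.5. The second, from 25090486 to 25091129, was 644 bp wide and scored 323 (rank 15). Both scored higher than every arm peak within 10% of their width. So did the sixth, from 22426339 to 22426965 (627 bp, score 277), and the ninth, from 20513263 to 20513761 (499 bp, score 194).

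A group of 3 high-scoring peaks lay near the start of Uextra. The peak from 438962 to 440101, with a width of 1140 bp, was the widest on Uextra and ranked 3 by score on Uextra (310). The peak from 499332 to 500450 (1119 bp, score 282) was the second widest, and that from 771852 to 772742 measured 891 bp and scored 292. The peak of rank 3 in width, from 3845652 to 3846594 (943 bp), scored 59.4, below the arm median of 67.6 at its width. The remaining peaks of the 10 scored between 194 and 196. They lay from 21882863 to 21883571, from 14899285 to 14899945 and from 1833681 to 1834203. Among the 50 highest scores of the whole list 6 were on Uextra (12.0%, 95% interval 4.53 to 24.3%), against 10.5% of all peaks. Among the highest 100 there were the same 6 (6.00%, 2.23 to 12.6%), and among the highest 500 there were 27 (5.40%, 3.59 to 7.76%).

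Peaks on Uextra were sparser than on the arms and mostly single. There were 15.2 per Mb (exact 95% Poisson interval 13.8 to 16.6), against 26.5 to 35.2 per Mb on the 4 arms. The median distance from the centre of a peak to that of the nearest other peak was 18.4 kb (95% interval 16.3 to 21.42 kb), against 4.37 to 6.58 kb on the arms. A neighbour closer than 5 kb was present for 80 of the 439 peaks (18.2%, 14.7 to 22.2%), against 45.1% of the whole list and 44.1 to 53.9% on the 4 arms. U was sparser still, with 3.82 peaks per Mb, a median distance of 44.4 kb and 18.4% of its 38 peaks with a neighbour closer than 5 kb. The heterochromatic scaffolds had 8.71 peaks per Mb, but these lay closer together, with a median distance of 1.77 kb and 61.6% with such a neighbour. Gaps between the edges of successive peaks had a median of 38.6 kb and quartiles of 12.1 and 85.0 kb, and the shortest was 53 bp. The longest stretch without a peak ran for 448 kb, from 2837217 to 3285508. How much of Uextra can be matched by reads was not tested.

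**Figure D5:**
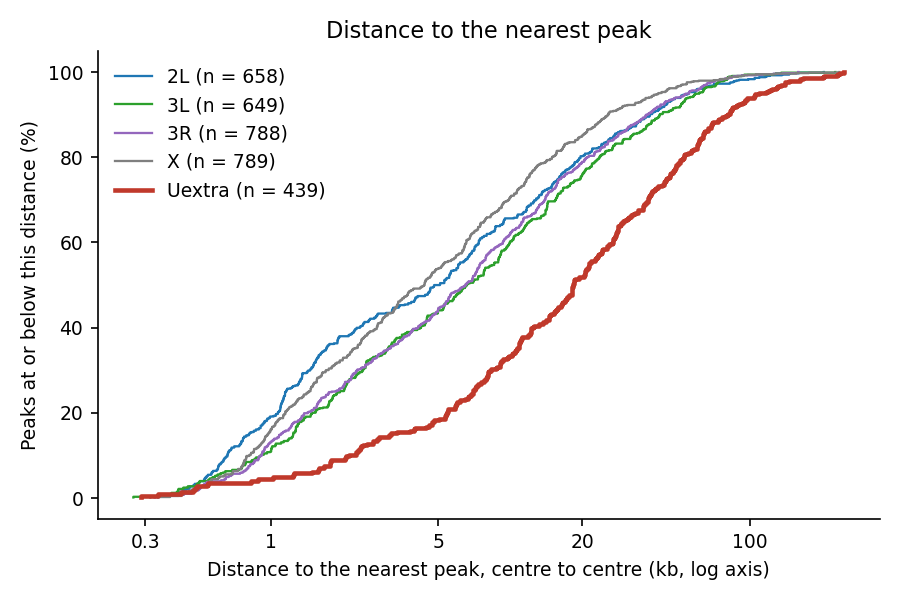
Cumulative share of peaks (%) against the distance from centre to centre to the nearest peak (kb, log axis) for Uextra (thick line) and the arms 2L, 3L, 3R and X (thin lines). Below 5 kb the Uextra line reaches 18.2% and the arm lines 44.1 to 53.9%.

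Close groups were small. Joining peaks whose edges lay less than 2 kb apart left 389 peaks alone, 20 pairs, 2 groups of 3 and 1 group of 4. In all, 50 of 439 peaks (11.4%) were in such groups, against 31.9 to 41.8% on the arms. The group of 4 ran from 28725180 to 28731395, with scores of 21.2, 38.7, 50.1 and 36.2, and centres 1.77 to 2.11 kb apart. A group of 3 ran from 28568699 to 28572682, with scores of 35.4, 34.9 and 17.6. The other group of 3, from 10903237 to 10906147, scored 11.7, 41.3 and 15.5, and only its middle peak was above the arm median at its width. Peaks in these groups had a median score of 27.5 (95% interval 19.3 to 34.8, n = 50) and those alone had 26.7 (24.4 to 30.01, n = 389), so the intervals overlap. The grouped peaks were narrower, with a median width of 320 bp against 375 bp. At like width, 41 of the 50 (82.0%) scored above the arm median, against 275 of the 389 alone (70.7%). Of the 23 groups, 10 lay in the sixth stretch, where 94.6% of all 111 peaks were above the arm median at their width. Whether the higher share goes with grouping or with position was not tested.

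Crowding was found at the end of Uextra. Of 580 windows of 50 kb, 295 held no peak, 183 held 1 and 73 held 2. The 6 windows with 5 or more peaks all lay between 28550001 and 28900000, and 38 peaks (8.66% of those on Uextra) fell in these 350 kb. Windows of the arms are not given here, and the arms held more peaks per Mb (26.5 to 35.2) than Uextra (15.2). The densest window, from 28600001 to 28650000, held 7 peaks with scores from 22.9 to 79.1. Each of 4 windows held 6 peaks, the first 2 of them starting at 28550001 and 28700001, with median scores of 28.4 and 37.4.

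Peaks in the 6 crowded windows were narrow, from 202 to 526 bp wide, the median being 233 bp. Their median score was 31.0 (95% interval 24.7 to 35.5, n = 36), and 35 of the 36 scored above arm peaks of like width. From 28 Mb on there were 64 peaks in 0.961 Mb, against 6 to 26 in each Mb before. No window outside these 6 held more than 4 peaks, and 5 windows held 4. In the window starting at 28500001, next to the crowded stretch, all 4 peaks were above the arm median at their width. In those starting at 10800001, 10900001, 11300001 and 16950001, 2 of the 4 peaks were above it in each. Whether the length or repeat content of the scaffolds changes at the end of Uextra was not tested.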

How the data were processed

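ChIP-seq of 2 GFP-antibody and 2 input libraries was available as 1 deposited peak list. Its coordinates are on FlyBase release 5 and its source is MACS, per the file headers and columns. Per the submitters' processing notes, MACS2, BWA and CASAVA (versions 1.7.0.2 and 1.7.0.3) were used, with settings not given in these notes. The score is the authors' deposited value for each peak. Which statistic it is, its scale, its threshold and whether replicates were pooled are not stated in any source used here. Scores were used only to rank and describe peaks within this list.

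Peaks were taken by sequence name. Width classes, medians, the shares above arm peaks within 10% of the width, distances and windows of 50 kb were computed in Python 3.11.15 (scipy 1.17.1, pandas 2.3.3, numpy 2.4.6) and drawn with matplotlib 3.10.9. The width matching was tried on random draws of arm peaks, with scores left as given or raised by a fixed factor. Such draws do not copy the makeup of Uextra and check the calculation only. The arms compared were 2L, 3L, 3R and X, and every mention of the arms or of an arm peak refers to these 4 only. The arm 2R was not part of the comparison. Named regions were the 10 highest scores, the 3 widest peaks, the 3 densest windows, the 3 longest groups with gaps under 2 kb, and the longest gap. Members, classes and lists were chosen with earlier results of these data known. No test across libraries was possible.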

Additional observations from a re-analysis of the deposited data

How the results depend on the processing

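Of 42 values under alternatives, 29 stayed within the 95% interval of the reported value or, for windows, within 1.5 times of it, and 13 moved. Only the width-matched difference and the share above arm peaks of like width have a direction that could reverse, and none of their alternatives did. The width-matched difference in score, 9.04, ran from 6.20 (sixth stretch left out, added after the data were seen) to 11.2 (peaks matched within 10% of the width). Each arm alone gave 8.18 to 10.7. The share above arm peaks of like width, 72.0%, was 66.6% with peaks within 1 kb merged and 64.3% without the sixth stretch; all its alternatives were added after the data were seen. The median width of 371 bp was 436.5 bp among the higher scored 50% of the list, 420.5 bp in the first 50% of the length of Uextra, 322 bp in the remainder, and 416.5 bp without the sixth stretch. The median distance of 18.4 kb was 37.7 kb for the higher scored 50% and 22.9 kb without the sixth stretch. The share with a close neighbour, 18.2%, was 4.56% under 1 kb, 33.3% under 10 kb, and 14.3% without the sixth stretch. Crowded windows numbered 18 at 20 kb with 3 peaks and 2 for the higher scored 50%, against 6. No paired analysis was possible because each peak has 1 score and no library has its own, so no replicate could be left out either. Depth is unknown, so a stretch without a peak was not shown to be unbound.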
